A study of Mus musculus with 6 samples.

Results

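The 9 genes described here encode secreted or membrane factors with known effects on blood vessels, namely *Vegfa*, *Vegfb*, *Vegfc*, *Lect1*, *Tnmd*, *Serpinf1*, *Angptl1*, *Angptl2* and *Angptl4*. They were taken by gene symbol from a table of 23159 genes, and all 9 were listed in it. RNA was compared between slow-cycling label-retaining chondrocytes (LRCs) and more rapidly dividing non-LRCs from the growth plates of mice at postnatal day 49 (P49). There were 3 independent experiments, each with 1 LRC library and 1 non-LRC library sorted from cells pooled from multiple littermates, so that the 6 libraries formed 3 pairs.

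The mice of both groups had the same genotype and were homozygous for each of 4 alleles, *Col2a1-tTA* at the *Peli2* locus, *TRE-H2B-GFP* at the *Col1a1* locus, *Col2a1-creER* and the *R26R*-tdTomato reporter. The *Col2a1* promoter, active in chondrocytes, drives both the tTA activator and the tamoxifen-dependent creER recombinase. Doxycycline from P21 to P49 shut off H2B-GFP transcription in both groups, so that each division diluted the nuclear label, and tamoxifen at P46 and P47 turned on tdTomato. LRCs were the CD45-negative, tdTomato-positive cells with the brightest H2B-GFP, and non-LRCs were those with middle to low H2B-GFP. There was therefore no untreated group, and neither gate took cells without H2B-GFP. The labels give fewer sorted cells for an LRC library than for a non-LRC library, and this difference cannot be told apart from the difference between the groups. In such bulk samples, fewer cells expressing a gene and less RNA per cell cannot be told apart.

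Growth plate cartilage has no blood vessels of its own. Its hypertrophic zone secretes vascular endothelial growth factor (VEGF), which draws vessels in from the bone marrow side, whereas cartilage matrix also stores inhibitors such as chondromodulin that keep endothelial cells out. VEGF ligands act through the receptor tyrosine kinases encoded by *Flt1*, *Kdr* and *Flt4* with neuropilins as co-receptors, and angiopoietin-like proteins resemble the ligands of the Tie receptors but are not known as their ligands.

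Library totals ranged from 18943789 to 129559872 counts. The smallest was that of the LRCs of experiment 2, with 0 counts for 1731 of the 13728 genes tested, against 4 to 365 in the other 5 libraries. Levels are given in CPM, the counts per 1000000 counts with library sizes scaled by TMM (edgeR's trimmed mean of M values). In that library 0 counts allowed a level of up to 0.143 CPM, the value of 3 counts, and at most 0.0785 CPM in the other 5. These limits cover counting error only, since PCR-amplified reads without molecular identifiers are not independent molecules. The labelled cell type was borne out by its markers in both groups. The 7 chondrocyte markers summed to between 73920 and 214300 CPM in LRCs and between 117100 and 217400 CPM in non-LRCs, none of them with an adjusted p below 0.05 (edgeR), led by *Col2a1* and *Col11a2*, which encode cartilage collagens. *Col2a1* made up most of each sum. Of the 7 markers, 5 were lower and 1 higher in LRCs in all 3 experiments, against 26.0% and 20.4% of all genes tested. Markers of superficial articular and synovial cells stood apart, with sums of 1494 to 3185 CPM in LRCs and 131.9 to 205.6 CPM in non-LRCs. Skeletal muscle markers, led by *Tnnt3* and *Acta1*, summed to at most 14.0 CPM in any library, and leukocyte and erythroid markers, led by *Cd68* and *S100a9*, to at most 24.5 CPM, reached in the LRC library of experiment 2.

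Differences were tested on the raw counts with edgeR's quasi-likelihood test with the experiment as a block. A positive log2 fold change (log2FC, given ± its standard error) is higher in LRCs, and differentially expressed genes (DEGs) had a Benjamini-Hochberg adjusted p below 0.05 over all genes tested and a fold change of at least 2. Among the genes tested, 166 (1.21%) were DEGs, 120 (0.874%) with the higher level in LRCs and 46 (0.335%) with the lower. Of the 9 factors, 8 passed the filter on low counts, all except *Vegfc*. *Angptl1* was the 1 DEG among them, upregulated in LRCs.

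*Vegfa*, *Tnmd*, *Angptl1* and *Angptl4* were higher in LRCs in all 3 experiments, as were 20.4% of all genes tested. *Lect1* and *Serpinf1* were lower in LRCs in all 3, as were 26.0% of all genes. The 6 libraries separated completely by group for 3 factors, *Vegfa* and *Angptl1* on the high side and *Serpinf1* on the low side of LRCs, and for 18.7% of all genes. The median log2 fold change was 0.53 over the 8 factors tested and -0.10 over all genes tested.

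Sequence just upstream of the transcription start is shown for the most abundant VEGF ligand and the most abundant inhibitor by level per length, *Vegfa* and *Lect1*, to place the genes whose RNA was compared. Each window holds the 250 bases before the start of the RefSeq gene on GRCm38.p6, 5′ to 3′ on the minus strand, at chr17:46032378-46032627 for *Vegfa* and chr14:79662184-79662433 for *Lect1*. Capitals mark the GC box GGGCGG, the only motif searched that was present in these windows.

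Vegfa: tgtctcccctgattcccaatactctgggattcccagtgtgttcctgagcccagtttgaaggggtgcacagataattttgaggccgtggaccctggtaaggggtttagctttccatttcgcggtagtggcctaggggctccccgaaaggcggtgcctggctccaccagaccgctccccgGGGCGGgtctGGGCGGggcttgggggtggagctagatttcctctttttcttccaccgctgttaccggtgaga

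Lect1: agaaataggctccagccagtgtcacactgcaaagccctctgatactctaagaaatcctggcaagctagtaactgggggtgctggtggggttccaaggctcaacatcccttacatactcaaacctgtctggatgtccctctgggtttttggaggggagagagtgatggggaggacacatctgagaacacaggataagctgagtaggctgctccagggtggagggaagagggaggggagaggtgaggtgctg

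The *Vegfa* window held 2 GC boxes, and the *Lect1* window held none. A second *Vegfa* window, at chr17:46025164-46025413 and wholly inside the annotated gene, held 1 GC box and 1 core motif of hypoxia-inducible factor (HIF) and is not shown. The motifs searched on both strands were the GC box, the HIF core ACGTG and the TATA box TATAAA. Among 32851 RefSeq windows of the same length, 32.7% held a GC box, 16.6% a HIF core and 12.4% a TATA box. The GC content was 59.2% in the *Vegfa* window shown and 54.0% in the *Lect1* window. These matches describe the letters of the windows only.

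Levels of the 9 genes were compared per kilobase of exon, as CPM per kb of the union of all annotated exons averaged over the 6 libraries. *Lect1* was far the most abundant, with a mean of 3712 CPM per kb and a range of 2752 to 4965 CPM per kb. *Angptl2* followed with a mean level of 98.2 CPM per kb (58.8 to 124.6). *Vegfa* was next, at 38.2 CPM per kb (28.7 to 44.2). The ranges of these 3 genes did not overlap. *Angptl4* averaged 25 CPM per kb (10.6 to 49.7) and *Serpinf1* 22.0 CPM per kb (11.8 to 35.7). *Vegfa*, *Angptl4* and *Serpinf1* therefore overlapped each other, and *Angptl4* and *Serpinf1* changed places when the longest transcript was used as the length (26.7 and 28.3 CPM per kb).

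The remaining 4 genes were scarce. *Tnmd* averaged 2.81 CPM per kb, *Angptl1* 2.42, *Vegfb* 0.898 and *Vegfc* 0.0216. The ranges of *Tnmd* (0.515 to 10.7 CPM per kb), *Angptl1* (0.0276 to 6.72) and *Vegfb* (0.623 to 1.46) overlapped, whereas *Vegfc* (0 to 0.111) lay below all others except part of the range of *Angptl1*. *Lect1* made up between 93.5% and 96.4% of the summed level per length of the 9 genes in each library. The factors also differed in how much they varied over the 6 libraries. The highest level was 1.54 times the lowest for *Vegfa*, 1.80 times for *Lect1* and 2.12 times for *Angptl2*, but 20.8 times for *Tnmd* and 243 times for *Angptl1*.

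**Figure D1:**
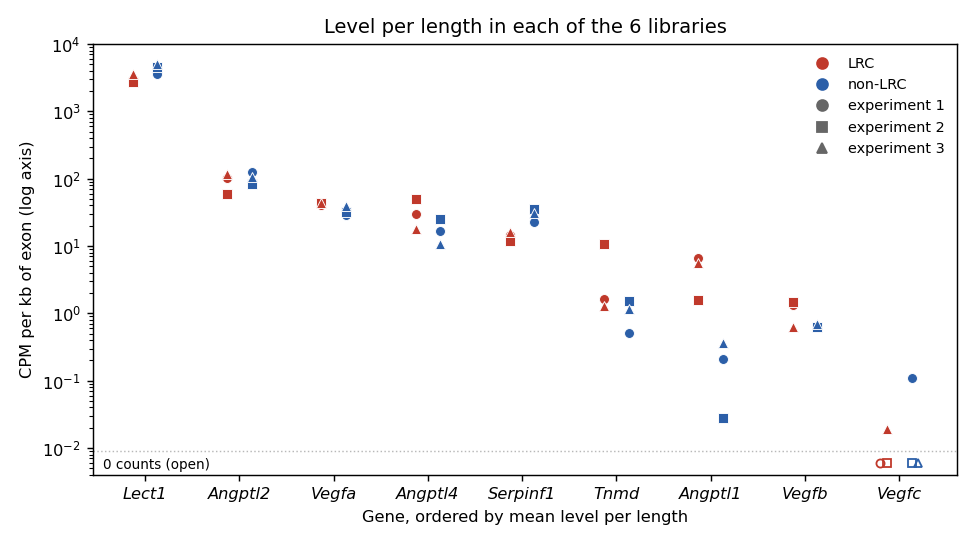
Level of each of the 9 genes per kilobase of exon (CPM per kb, log axis) in the 3 LRC libraries (red) and the 3 non-LRC libraries (blue), with the experiment given by the symbol and open symbols for libraries with 0 counts. *Lect1* lies above all other genes in every library, and *Angptl1* is the gene whose LRC and non-LRC levels lie farthest apart.

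*Vegfa* encodes the main VEGF ligand, which in the growth plate is known for drawing vessels into the hypertrophic zone. It lies on chromosome 17 (46016993 to 46032369, minus strand, GRCm38). Its level in experiments 1, 2 and 3 was 173, 188 and 189 CPM in LRCs against 123, 138 and 170 CPM in non-LRCs. All 3 LRC libraries lay above all 3 non-LRC libraries, with a narrow gap between the LRC library of experiment 1 and the non-LRC library of experiment 3. The means were 184 ± 8.93 and 143 ± 23.9 CPM (± s.d., *n*=3). *Vegfa* did not pass the threshold (log2FC 0.37 ± 0.14 s.e., 95% interval 0.01 to 0.72, unadjusted p = 0.0439, adjusted p = 0.257, edgeR). On the log2 CPM scale, the LRC library exceeded its non-LRC partner by 0.50, 0.45 and 0.16, smallest in experiment 3. Markers of hypertrophic chondrocytes, the cells known for VEGF secretion, summed to 926.2 to 2090 CPM in LRCs and 1117 to 3009 CPM in non-LRCs. *Spp1* was the largest part of each sum, at 398, 1728 and 1111 CPM in LRCs against 416, 1683 and 1100 CPM in non-LRCs. Of the 8 hypertrophic markers, 7 had a negative and 1 a positive log2 fold change. In all 3 experiments 4 were lower and 1 higher in LRCs, against 26.0% and 20.4% of all genes tested. *Panx3*, a pannexin channel gene, was a DEG upregulated in non-LRCs (-4.01). *Col10a1* (-2.95) and *Ihh* (-5.35) were also lower in LRCs but did not pass the threshold (adjusted p = 0.101 and 0.15, edgeR). The part of hypertrophic cells in the *Vegfa* level was not tested.

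*Vegfb* encodes a VEGF ligand that binds the receptor encoded by *Flt1*, and lies on chromosome 19 (6982473 to 6987651, minus strand). It had 249, 49 and 43 counts in LRCs against 106, 39 and 56 counts in non-LRCs, or 2.13, 2.34 and 1.001 CPM against 1.03, 1.02 and 1.13 CPM. The LRC libraries of experiments 1 and 2 lay above all others and that of experiment 3 below all others, so the groups overlapped. The log2 fold change of *Vegfb* was 0.70 with an interval of -1.30 to 2.70 (s.e. 0.82, adjusted p = 0.70, edgeR), and a difference was not detectable at this depth. *Vegfc*, the ligand best known for the growth of lymphatic vessels, lies on chromosome 8 (54077606 to 54187096, plus strand). It had 0, 0 and 2 counts in LRCs against 28, 0 and 0 counts in non-LRCs, so that 4 of the 6 libraries had none, and it was not tested.

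*Lect1*, whose current symbol is *Cnmd*, encodes chondromodulin, the matrix protein of cartilage known for inhibiting the growth of endothelial cells. It lies on chromosome 14 (79637690 to 79662170, minus strand). In experiments 1, 2 and 3 its level was 5219, 5072 and 6653 CPM in LRCs against 6511, 8446 and 9150.4 CPM in non-LRCs. It took between 0.470% and 0.959% of all counts of a library and ranked 7 by mean CPM among the genes tested. The groups overlapped, since the LRC library of experiment 3 lay just above the non-LRC library of experiment 1, but within each experiment the LRC library was the lower. The means were 5648 ± 873 and 8036 ± 1366.5 CPM (± s.d., *n*=3), and the within-experiment difference was -0.32, -0.74 and -0.46 on the log2 CPM scale. The fitted level was 1.42-fold higher in non-LRCs and did not pass the threshold (log2FC -0.50 ± 0.16 s.e., interval -0.90 to -0.11, unadjusted p = 0.0198, adjusted p = 0.180, edgeR). The adjusted p was 0.0160 under DESeq2 and 0.0326 under limma-voom, both with the block, with a fold change below 2, and it lay between 0.0160 and 0.594 over all alternatives tried.

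*Tnmd* encodes tenomodulin, a membrane protein related to chondromodulin and known as a marker of tendon and ligament cells. Its gene is on chromosome X (133850980 to 133865577, plus strand). It had 259, 303 and 75 counts in LRCs against 72, 80 and 79 counts in non-LRCs, which was 2.22, 14.5 and 1.75 CPM against 0.697, 2.09 and 1.59 CPM. The LRC library of experiment 2 stood far above the other 5, and the others overlapped between groups. The ratio of LRC to non-LRC levels was 3.18 in experiment 1 (95% counting interval 2.44 to 4.19) and 6.91 in experiment 2 (5.39 to 8.96). In experiment 3 it was 1.10 (0.790 to 1.53), so there the levels differed by less than the counting error. *Tnmd* did not pass the threshold (log2FC 1.54 ± 0.71 s.e., interval -0.19 to 3.28, adjusted p = 0.320, edgeR). Its log2 fold change was 0.91 without experiment 2 (adjusted p = 0.433) and 2.25 without experiment 3 (adjusted p = 0.354, edgeR), and over all alternatives its adjusted p lay between 0.0974 and 0.653.

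In the library with the most *Tnmd*, the 9 markers of tendon and ligament, *Tnmd* included, together summed to 7841 CPM. The sums were 9993 and 12790 CPM in the other LRC libraries and 5775 to 9296 CPM in non-LRCs. *Fmod* alone made up most of each sum. It was at 6377 CPM in the library with the most *Tnmd*, 8238 and 9480 CPM in the other LRC libraries and 4799 to 7122 CPM in non-LRCs. The sum therefore mainly followed *Fmod*. *Scx*, the transcription factor that defines tendon cells, was at 9.85 CPM in the library with the most *Tnmd*, against 7.0 and 7.28 CPM in the other LRC libraries and 6.01 to 13.4 CPM in non-LRCs. Of the 8 tendon and ligament markers tested, *Tnmd* itself included, 7 had a positive and 1 a negative log2 fold change. The 2 DEGs upregulated in LRCs were *Thbs4* (2.83) and *Col1a1* (2.38). Endothelial markers, led by *Erg* and *Egfl7*, summed to 12.9 CPM in this library and to 4.03 to 6.0 CPM in the other 5, and the part of tendon, ligament or endothelial cells in the *Tnmd* level was not tested.

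*Serpinf1* encodes pigment epithelium-derived factor, a secreted member of the serpin family known for inhibiting angiogenesis. The gene is on chromosome 11 (75409769 to 75422701, minus strand). Its level was 34.5, 27.8 and 38.2 CPM in LRCs against 54.0, 84.3 and 72.6 CPM in non-LRCs. Every non-LRC library lay above every LRC library. The means were 33.5 ± 5.27 and 70.3 ± 15.3 CPM (± s.d., *n*=3), a fitted level 2.08-fold higher in non-LRCs. The within-experiment difference of *Serpinf1* was -0.65, -1.60 and -0.93 on the log2 CPM scale, so experiment 2 differed most. *Serpinf1* did not pass the threshold (log2FC -1.05 ± 0.23 s.e., interval -1.61 to -0.50, unadjusted p = 0.00358, adjusted p = 0.0887, edgeR). It was a DEG under DESeq2 (adjusted p = 0.00105) and with at least 10 counts required in every library (adjusted p = 0.0309, edgeR), and over all alternatives its adjusted p lay between 0.00105 and 0.284. Osteoblast markers, which mark another cell type known to make this protein, summed to 130.8 to 299.1 CPM in LRCs and 132.5 to 427.5 CPM in non-LRCs. Of 7 osteoblast markers tested, 2 had a positive and 5 a negative log2 fold change, with a median of -0.89. Of these, 3 were lower and 2 higher in LRCs in all 3 experiments, against 26.0% and 20.4% of all genes tested. *Col1a1* was a DEG upregulated in LRCs (2.38). *Sost*, a defining osteocyte gene, was at 0 in all 6 libraries. The part of such cells in the *Serpinf1* level was not tested.

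*Angptl1* encodes a secreted angiopoietin-like protein known for inhibiting the growth of endothelial cells. It lies on chromosome 1 (156838562 to 156861078, plus strand) and had 2230, 93 and 685 counts in LRCs against 61, 3 and 52 counts in non-LRCs. In CPM these were 19.1, 4.45 and 15.9 in LRCs and 0.591, 0.0785 and 1.05 in non-LRCs. The lowest LRC library lay more than 4-fold above the highest non-LRC library, so the groups did not overlap in spite of a wide spread within each. *Angptl1* averaged 13.2 ± 7.71 CPM in LRCs against 0.572 ± 0.484 CPM in non-LRCs (± s.d., *n*=3). The ratio within an experiment was 32.3 (95% counting interval 25.1 to 42.4) in experiment 1 and 15.2 (11.5 to 20.6) in experiment 3. In experiment 2, where the non-LRC library had only 3 counts, it was 56.6 with an interval of 18.8 to 279.4. The fitted fold change was 27.7, ranking 14 from the top among all genes tested (log2FC 4.79 ± 0.54 s.e., interval 3.48 to 6.10, adjusted p = 0.0275, edgeR).

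The *Angptl1* log2 fold change was 4.48 without experiment 2 (adjusted p = 0.00382) and 4.71 without experiment 1, where it was no longer a DEG (adjusted p = 0.147, edgeR). Without the block it was 4.51, also not a DEG (adjusted p = 0.178, edgeR, the highest of the alternatives, against 3.64e-16 under DESeq2, the lowest). *Angptl1* overlaps *Ralgps2*, a gene on the opposite strand with which it shares no annotated exon sequence, and 465 of its exonic bases are shared with *Gm37802*, also on the opposite strand. The strand setting of the counting is not given in the sources used here, so reads of overlapping genes are uncertain. *Ralgps2* itself reached at most 0.668 CPM in any library, with a log2FC of 0.41 (s.e. 1.58, adjusted p = 0.915, edgeR). Markers of superficial articular and synovial cells summed to 3185, 1494 and 3085 CPM in LRCs. The lowest LRC sum was in experiment 2, as was the lowest LRC level of *Angptl1*. In non-LRCs the sums were 205.6, 171.3 and 131.9 CPM. Their lowest was in experiment 3, where *Angptl1* was highest among the non-LRC libraries. Of the 8 markers tested, 7 had a positive log2 fold change and 5 were DEGs upregulated in LRCs, *Prg4* (5.75), *Abi3bp* (3.73), *Clu* (3.64), *Cilp* (3.61) and *Thbs4* (2.83), with *Htra4* at 0 counts in the LRC library of experiment 2. Their part in the *Angptl1* level was not tested.

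*Angptl2* encodes an angiopoietin-like protein with known angiogenic and inflammatory effects. The gene is on chromosome 2 (33216069 to 33247717, plus strand), and overlaps *Ralgps1* on the opposite strand with no shared exon sequence. Its level was 642, 370 and 734 CPM in LRCs against 783, 518 and 657 CPM in non-LRCs. The groups overlapped, and the LRC library was the lower in experiments 1 and 2 and the higher in experiment 3. The means were 582 ± 189.3 and 653 ± 132.8 CPM (± s.d., *n*=3), and no difference was detectable (log2FC -0.20 ± 0.17 s.e., interval -0.63 to 0.22, adjusted p = 0.583, edgeR).

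*Angptl4* encodes an inhibitor of lipoprotein lipase that is known to be induced by fasting and by low oxygen. It lies on chromosome 17 (33773750 to 33781830, minus strand). Its level was 105, 176 and 63.9 CPM in LRCs against 58.6, 88.7 and 37.5 CPM in non-LRCs. Levels differed more between experiments than between groups, highest in experiment 2 and lowest in experiment 3 in both groups, and the groups overlapped. Within each experiment, however, the difference was 0.85, 0.99 and 0.77 on the log2 CPM scale, the narrowest range among the 8 tested factors. The means were 115 ± 56.7 and 61.6 ± 25.8 CPM (± s.d., *n*=3). The fitted fold change was 1.83 and the adjusted p lay just above the threshold (log2FC 0.87 ± 0.14 s.e., interval 0.52 to 1.22, unadjusted p = 0.000894, adjusted p = 0.0564, edgeR). The adjusted p was 0.0386 without experiment 2 (edgeR) and 2.21e-05 under DESeq2, where the fold change was again below 2, and reached 0.564 without the block. *Lpl*, which encodes the lipase that this protein inhibits and is also a marker of adipocytes, averaged 3.94 ± 1.22 CPM in LRCs against 9.39 ± 1.77 CPM in non-LRCs (log2 fold change -1.29, adjusted p = 0.157, edgeR). The 8 adipocyte markers together summed to 3.62 to 10.5 CPM in LRCs and 8.40 to 12.0 CPM in non-LRCs, with *Adipoq*, *Lep*, *Retn* and *Cfd* at 0 in all libraries. *Fabp4*, a fatty acid binding protein gene of the same list, was at 6.60 CPM in the LRC library of experiment 2, also the library with the most *Angptl4* and *Tnmd*, and at 0.497 to 1.29 CPM in the other 5. The highest sum of the list, 12.0 CPM, was in the non-LRC library of experiment 3, the library with the least *Angptl4*. *Lpl* alone made up 11.3 CPM of that sum, so it mainly gives the *Lpl* level. The part of adipocytes in the *Angptl4* level was not tested.

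**Figure D2:**
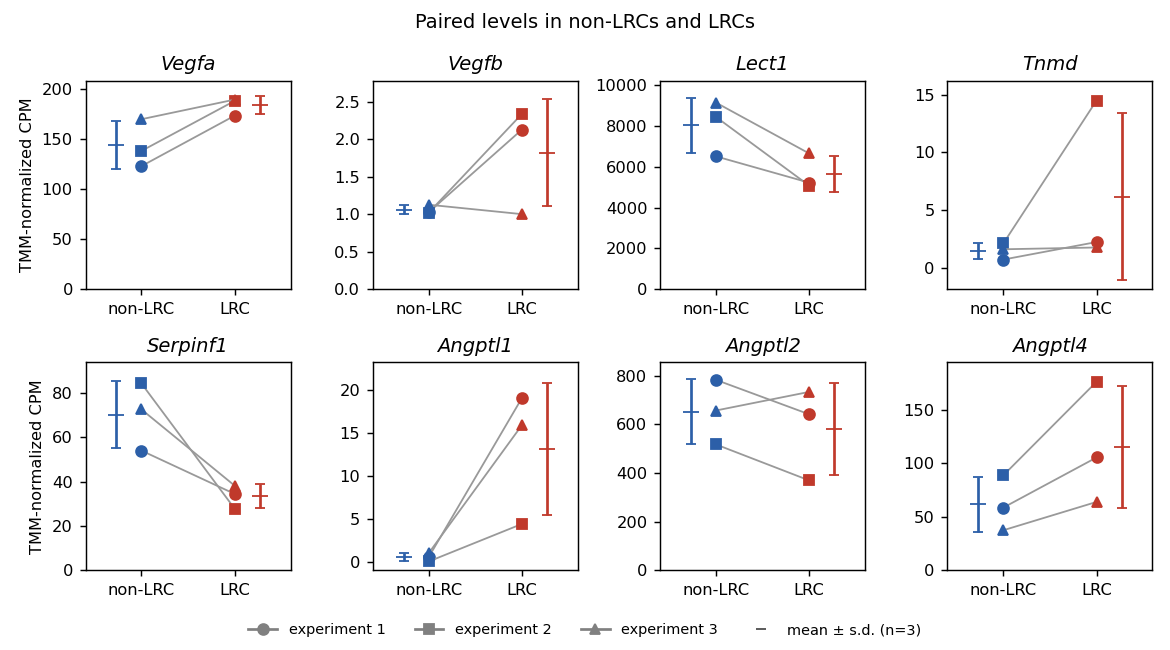
TMM-normalized CPM of the 8 tested genes in non-LRCs (blue) and LRCs (red), with a grey line joining the 2 libraries of each experiment and bars for the mean ± s.d. (*n*=3). All 3 lines run upward to LRCs for *Vegfa*, *Tnmd*, *Angptl1* and *Angptl4* and downward for *Lect1* and *Serpinf1*, and the *Tnmd* mean in LRCs rests on experiment 2.

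**Figure D3:**
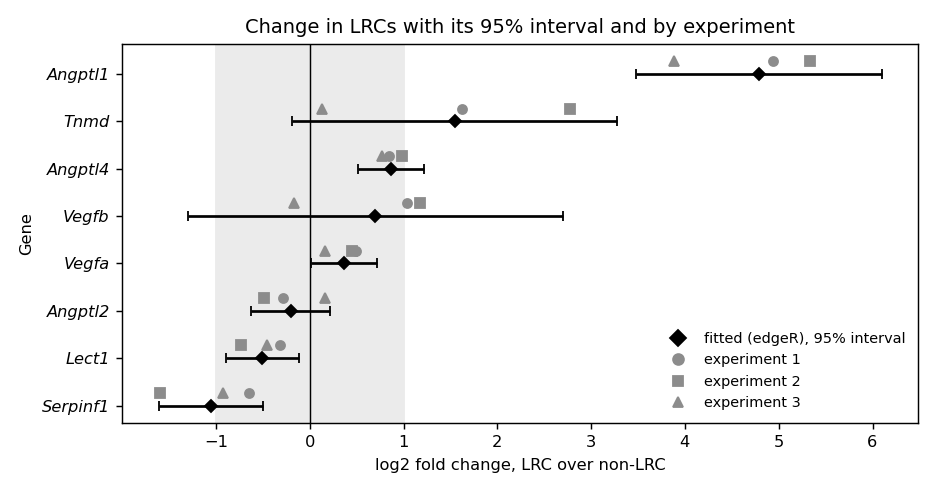
Fitted log2 fold change of each tested gene (black diamonds, with 95% intervals from edgeR) and the difference in log2 CPM within each experiment (grey symbols), with the band of less than 2-fold change shaded. The interval of *Angptl1* (3.48 to 6.10) is the only one wholly outside the band, and those of *Vegfb*, *Tnmd* and *Angptl2* include 0.

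Pairs of factors were also described by the ratio of their levels per length within a library. *Lect1* was 70.1, 62.7 and 81.7 times the level of *Vegfa* in the LRC libraries of experiments 1, 2 and 3. In non-LRCs it was 123, 142 and 125 times that level. The groups did not overlap, and the ratio was lower in LRCs in all 3 experiments. *Lect1* was also 1728, 257 and 2798 times the level of *Tnmd* in LRCs and 6858, 2960 and 4226 times in non-LRCs. *Angptl2* was 15.2, 37.6 and 20.8 times the level of *Angptl1* in LRCs and 599, 2979 and 284 times in non-LRCs, also without overlap. Since these ratios combine the levels given above, they are descriptions and were not tested.

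Across the 6 libraries, *Lect1* and *Serpinf1* varied most alike among the 8 tested genes (Pearson's r of log2 CPM 0.930). *Tnmd* and *Angptl2* varied most oppositely (r = -0.930), and the LRC library of experiment 2 held the highest *Tnmd* and the lowest *Angptl2*. *Angptl1* was opposite to *Serpinf1* (r = -0.837) and *Tnmd* went with *Angptl4* (r = 0.800). These values share the same 6 libraries and include the difference between the groups.

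The genes most like each factor were sought among the 11128 or 11129 genes with at least 10 counts in every library, by Pearson's r of log2 CPM over the 6 libraries. With 6 values per gene and so many genes compared, high values of r are to be had for every factor. For *Angptl1* the closest were *Smarcc2* (0.998), *Sox4* (0.997) and *Crtc2* (0.997). The genes most like *Vegfa* were *Fzr1* (0.989), *Rfk* (0.989) and *Kif5a* (0.982). Those closest to *Lect1* were *Ramp1* (0.996), *Tmed2* (0.995) and *Zfp386* (0.995). *Serpinf1* was closest to *2610001J05Rik* (0.999), *Mmadhc* (0.995) and *Glt8d1* (0.995), and *Angptl4* to *Tcfl5* (0.997), *Ercc4* (0.997) and *Dusp3* (0.995). *Tnmd* was closest to *Acaa1a* (0.997), *Nfkbib* (0.993) and *0610010O12Rik* (0.990), *Angptl2* to *Arhgef6* (0.998), *Lrp12* (0.992) and *Dclk2* (0.991), and *Vegfb* to *Rrp9* (0.974), *Lass4* (0.973) and *Homer3* (0.972).

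The genes of the VEGF receptor kinases and of the Tie receptors had few or no counts in the sorted cells. *Kdr*, the main signalling receptor of VEGF on endothelial cells, had 0 counts in all 6 libraries, as did the endothelial markers *Cdh5*, *Emcn*, *Sox17* and *Robo4*. *Flt1*, which binds VEGF and can act as a decoy, had 215, 12 and 58 counts in LRCs against 93, 59 and 54 counts in non-LRCs (log2FC 0.01 ± 0.97 s.e., adjusted p = 0.997, edgeR). *Flt4*, the receptor of *Vegfc*, had 5, 0 and 20 counts in LRCs against 97, 24 and 8 counts in non-LRCs (log2FC -3.02 ± 2.43 s.e., adjusted p = 0.566, edgeR). The Tie receptor genes were near 0, with 0, 0 and 0 counts of *Tek* in LRCs and 6, 0 and 0 in non-LRCs. *Tie1* had 0, 0 and 9 counts in LRCs against 0, 19 and 1 counts in non-LRCs.

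The neuropilins, co-receptors of VEGF and also receptors of semaphorins, were expressed at levels that allowed a comparison. *Nrp1* was at 72.9, 43.9 and 58.1 CPM in LRCs against 141, 76.9 and 83.9 CPM in non-LRCs. *Nrp2* was at 49.0, 26.3 and 38.5 CPM in LRCs against 21.3, 15.3 and 12.9 CPM in non-LRCs. Neither pair of groups overlapped, and the 2 genes lay on opposite sides, *Nrp1* higher in non-LRCs and *Nrp2* higher in LRCs in all 3 experiments. Neither passed the threshold, with log2 fold changes of -0.76 for *Nrp1* (s.e. 0.16, adjusted p = 0.0819, edgeR) and 1.19 for *Nrp2* (s.e. 0.23, adjusted p = 0.0769, edgeR). *Nrp2* was called by DESeq2 and limma-voom, and by edgeR with at least 10 counts in every library and without experiment 2.

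Of the 10 VEGF ligand and receptor genes in the table, 7 were tested, 5 with a positive and 2 with a negative log2 fold change and 0 DEGs, with a median of 0.22. *Vegfa* and *Nrp1* had the highest mean CPM of them. Of the 11 angiopoietins, angiopoietin-like proteins and Tie receptors, 5 were tested, 2 positive and 3 negative with a median of -0.20, and *Angptl1* was the 1 DEG. *Angpt1*, which encodes the ligand that stabilizes vessels through Tie receptors, had 0, 0 and 2 counts in LRCs against 33, 23 and 60 counts in non-LRCs. It did not pass the threshold (adjusted p = 0.163, edgeR) and was a DEG under DESeq2. Of 14 other secreted angiogenic factors tested, 11 were positive and 3 negative, with a median of 0.27 and 0 DEGs. The most abundant of these by CPM were *Ctgf*, at 8544 ± 2155 CPM in LRCs against 7407 ± 3197 CPM in non-LRCs, and *Cyr61*, at 4073 ± 811 and 3280 ± 575 CPM, both encoding matricellular proteins.

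Other matrix and secreted angiogenesis inhibitors held 2 DEGs, both upregulated in LRCs, *Cxcl14* and *Timp2*. Of 14 tested, 12 had a positive and 2 a negative log2 fold change, 8 were higher and 1 lower in LRCs in all 3 experiments, and the median was 0.67. Over all genes tested, 1.21% were DEGs, 20.4% were higher and 26.0% lower in all 3 experiments, and the median was -0.10. The list was chosen with earlier results of these data known, so these counts describe its genes only. It leaves out the inhibitors among the factors above, of which *Lect1* (-0.50) and *Serpinf1* (-1.05) were lower and *Angptl1* (4.79) higher in LRCs. *Cxcl14*, a chemokine gene, was at 470.5, 1050.3 and 385 CPM in LRCs against 161, 210.2 and 99.2 CPM in non-LRCs (log2FC 1.94 ± 0.19 s.e., adjusted p = 0.0189, edgeR). *Timp2*, an inhibitor of matrix metalloproteinases, was at 1960, 1210.4 and 1422 CPM in LRCs against 788, 673 and 578 CPM in non-LRCs (log2FC 1.15 ± 0.16 s.e., adjusted p = 0.0440, edgeR). For both genes every LRC library lay above every non-LRC library. *Cxcl14* was a DEG also without experiment 1, and *Timp2* was not.

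HIF is known to activate *Vegfa* and *Angptl4* under low oxygen. Of 20 HIF and hypoxia response genes tested, 8 had a positive and 12 a negative log2 fold change, 3 were higher and 5 lower in LRCs in all 3 experiments, and the median was -0.08. These shares by direction and the median are near those over all genes tested (20.4% higher and 26.0% lower, median -0.10). However, 2 of the 20 had an adjusted p below 0.05 (edgeR), against 176 of the 13728 genes tested. The summed level of the list also did not overlap between groups, at 4356 to 5334 CPM in LRCs and 6067 to 7203 CPM in non-LRCs. *Car12*, a carbonic anhydrase gene, was at 146, 82.4 and 324 CPM in LRCs against 456, 330 and 618 CPM in non-LRCs, and was the 1 DEG, upregulated in non-LRCs (log2FC -1.52 ± 0.23 s.e., adjusted p = 0.0488, edgeR). *Pgk1*, which encodes a glycolytic enzyme, was at 217, 332 and 331 CPM in LRCs against 451, 699 and 563 CPM in non-LRCs. Its adjusted p was 0.0484 (log2FC -0.97 ± 0.14 s.e., edgeR), short of the threshold on fold change. *Hif1a*, the regulated subunit of the factor, averaged 1320 ± 514 and 1378 ± 101 CPM in LRCs and non-LRCs, and no difference was detectable (log2FC -0.15 ± 0.26 s.e., adjusted p = 0.804, edgeR). *Hif1a* and *Ldha* were named after their values were seen.

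**Figure D4:**
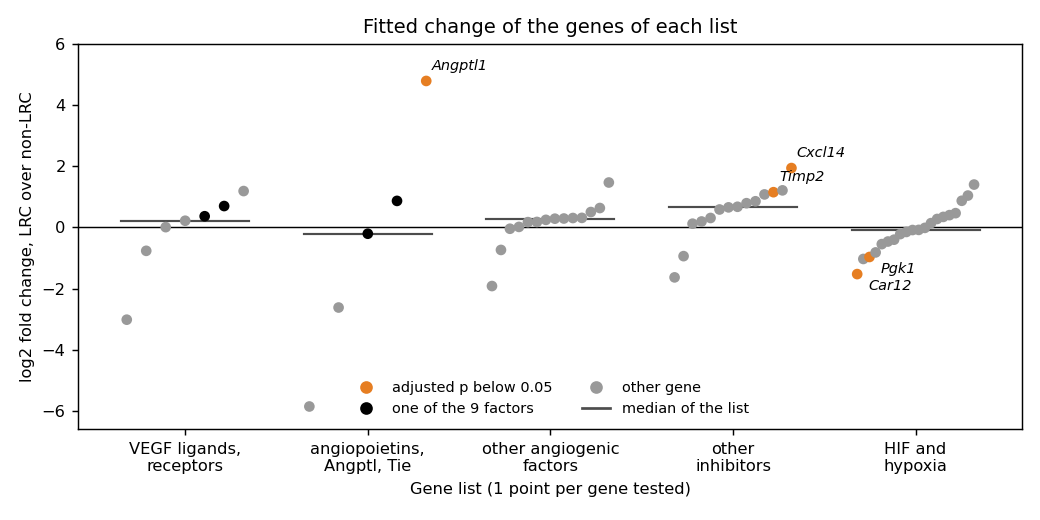
Fitted log2 fold change of each tested gene (1 point each) in 5 lists, with a bar for the median of the list, orange for an adjusted p below 0.05 (edgeR), black for the other factors described here and grey for the rest. Points of the other inhibitors lie mostly above 0 (12 of 14, median 0.67), and those of the HIF list lie on both sides of 0. The lists were chosen with earlier results of these data known.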

How the data were processed

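RNA from 6 libraries (3 LRC, 3 non-LRC) was analysed. Complementary DNA had been amplified from the total RNA of sorted cells and sequenced as 50-cycle single-end reads. The authors aligned the reads to GRCm38 (mm10) with TopHat2 2.0.13 and Bowtie2 2.2.1, versions given in the submitters' processing notes, and deposited raw counts per gene, made with HTSeq from unambiguously mapped reads. Amplification before counting can spread the levels of scarce genes. The authors' tables of size-factor normalized and rlog values were not used. Groups and experiment numbers came from the sample labels.

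The tests on the counts used edgeR 4.0.16 under R 4.3.3 (filterByExpr, minimum count 10 and minimum total 15, leaving 13728 genes; TMM; quasi-likelihood test; prior count 0.125; Benjamini-Hochberg adjustment). The experiment was a block, after the study's paired model. Deviations from the group means correlated between the libraries of experiments 1, 2 and 3 with Pearson's r of 0.197, 0.288 and 0.336 across genes. The log2 CPM used a prior count of 2. No library was a copy of another (chi-square per degree of freedom at least 162). The fit was tested on simulated data. Alternatives were no block, DESeq2 1.42.0, limma-voom (limma 3.58.1), other size factors, filters and prior count, and each experiment left out. Intervals of ratios are exact binomial and cover counting error only.

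Positions and lengths came from GENCODE vM21, in which 20786 of the 23159 symbols matched directly and 1917 through an older symbol, with 456 left unmatched. Promoter windows came from a table of RefSeq genes, in which 8 of the 9 factors were matched. The 9 genes and the lists were chosen with earlier results of these data known. Named genes were the 9 factors, the receptors, every list gene with an adjusted p below 0.05 or, in a list without one, the 2 most abundant by CPM, and the 3 genes most like each factor. Other genes named from the lists or as overlapping genes (such as *Angpt1*, *Scx*, *Htra4* and *Sost*) were chosen after their values were seen.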

Additional observations from a re-analysis of the deposited data

How the results depend on the processing

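The count of DEGs over all genes, 166 with edgeR and the experiment as a block, was 1 without the block, 799 under DESeq2, 621 under limma-voom and 434 with at least 10 counts in every library, and between 35 (without experiment 1) and 555 (without experiment 2) when 1 experiment was left out. The share of these DEGs with the higher level in LRCs was 72.3% as reported, 53.4% under DESeq2 (427 higher, 372 lower), 58.8% under limma-voom and 74.3% with DESeq2 size factors in edgeR. Among the 9 factors the count, 1 as reported, was 0 without the block, 2 under DESeq2 (*Angptl1* and *Serpinf1*) and between 0 and 1 with an experiment left out. With at least 10 counts in every library, *Angptl1* was not kept and *Serpinf1* was called in its place. The replicate block changed no other call among the factors. *Cxcl14*, *Timp2* and *Car12* were not called without it, and *Timp2* and *Car12* were not called without experiment 1. No log2 fold change of a tested factor turned direction under any alternative run, and that of *Angptl1* lay between 4.48 and 5.35. *Angptl4* never reached a 2-fold change (0.81 to 0.94). The causes of these differences were not tested. With 3 libraries a group, smaller differences than those called may go undetected, and the smallest library limits the scarce genes most.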
